A study of Homo sapiens with 12 samples.

Results

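The removal of TIMELESS from otherwise unperturbed cells was followed at the RNA level by setting 5-Ph-IAA alone against DMSO, with 3 libraries in each group and 6 of the 12 libraries of the series. All cells were HCT116 TIM-mAID, a line derived from HCT116, an established human colorectal cancer line, with a CRISPR knock-in of the mAID degron tag in a background labelled wild type. The DMSO group received the vehicle, and the 5-Ph-IAA group received 5-phenyl-1H-indole-3-acetic acid at 1 µM. Both groups were taken at 40 h and hold cells with the tag. Libraries in 2 further groups received the ATR kinase inhibitor ceralasertib (ATRi) at 1 µM, either alone or with 5-Ph-IAA at 1 µM (5-Ph-IAA/ATRi), also at 40 h, and they serve here as a second measurement of the effect of 5-Ph-IAA in other libraries. The labels do not say whether the line is 1 clone or how the ubiquitin ligase adaptor that the compound needs is expressed. TIMELESS protein was not measured in these data, and no untagged cells with the compound are among the libraries, so an effect of losing TIMELESS and an effect of the compound itself cannot be told apart. All genes entered the comparison: 62700 are in the table, 18049 had enough counts to be tested and 44651 did not.

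5-Ph-IAA is an auxin analogue that recruits degron-tagged proteins to a ubiquitin ligase, so that the proteasome destroys them. TIMELESS, together with TIPIN and CLASPIN, travels with the replication fork, keeps helicase and polymerase coupled and helps ATR to activate the checkpoint kinase CHK1. Forks that lose this protection can stall and break, and DNA damage signalling then stabilises p53, a transcription factor. Genes that p53 switches on halt the cell cycle, repair DNA, change metabolism, promote cell death and shut p53 off again.

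Library totals lay between 27.7 and 34.7 M estimated counts. Transcripts of the mitochondrial genome took 7.85%, 14.9% and 6.63% of the counts in DMSO replicates 1, 2 and 3, and 13.6%, 10.0% and 6.79% in 5-Ph-IAA replicates 1, 2 and 3. Within the DMSO group, replicates 2 and 3 lay farthest apart: the list of 46 G1/S and replication genes had a median log2 level of -0.94 in replicate 2 and 0.68 in replicate 3 relative to the group mean. The epithelial markers EPCAM and KRT8 were present in all 6 libraries, EPCAM between 365 and 550 CPM (counts scaled to the effective library size) and KRT8 between 1782 and 2422 CPM. Of the intestinal markers, CEACAM5 and CEACAM6 were at 0, and LGALS4 and VIL1 had at most 8 and 6 counts in a library. KRT20 was at 1.36 to 2.35 CPM and CDX2 at 12.62 to 16.45 CPM. Of the markers of other cell types, LUM was at 0 in every library, and COL1A2, DCN, PTPRC, CD3E, CDH5 and HBB had at most 2 counts in any library. COL1A1 was at 35.1 to 106 CPM and the macrophage marker CD68 at 6.82 to 16.9 CPM, while HBA1, ALB, VWF and KDR reached at most 53 counts in a library. The summed level of the 10 tested markers was 53.1 to 129 CPM in DMSO and 63.8 to 126 CPM in 5-Ph-IAA libraries. In RNA from whole cultures, fewer cells of a kind and less RNA per cell cannot be told apart. The series calls its replicates biological without naming separate cultures or passages, and p-values measure the spread between these libraries.

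SULF2 rose with 5-Ph-IAA, and it was the 1 gene of 18049 past the adjusted threshold of 0.05 (0.00554% of genes tested). SULF2 (ENSG00000196562.16; GRCh38.p14 chromosome 20, 47657406 to 47786627) encodes an extracellular sulfatase that removes 6-O-sulfate groups from heparan sulfate and so changes how growth factors bind to the cell surface. Its level was 12.2, 10.8 and 11.8 CPM in the DMSO libraries and 23.1, 21.7 and 21.3 CPM in the 5-Ph-IAA libraries. The lowest treated library stood well above the highest control, at a fold change of 1.90 and a log2 fold change of 0.93 ± 0.10 (standard error; edgeR quasi-likelihood test, adjusted p = 0.0341; 95% interval 0.70 to 1.16). The size of this rise changed little when any 1 of the 6 libraries was left out (log2 0.88 to 0.96), but each of these 6 fits lost the call, with edgeR adjusted p between 0.127 and 0.273. With ATRi in both groups, SULF2 went from 29.2, 29.2 and 26.1 CPM to 69.8, 65.7 and 70.5 CPM, a log2 fold change of 1.28 ± 0.10 (edgeR adjusted p = 0.000217).

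No other gene of its pathway passed the test. Of 28 enzymes and core proteins of heparan sulfate, 25 were tested, and 18 had a positive and 7 a negative log2 fold change. SULF2 was the 1 member with an unadjusted p under 0.05 (background 0.931% on the higher side). All 3 treated libraries lay above all 3 controls for 2 members (background 1.99%) and below for 1 (background 1.38%). The median of the list was 0.07, beside -0.01 over all genes. The gene next in rank was HS3ST1, a 3-O-sulfotransferase, with 135, 217 and 146 CPM in DMSO and 125, 154 and 98.7 CPM in 5-Ph-IAA libraries, which overlap (log2 fold change -0.40 ± 0.23). The perlecan gene HSPG2 had 82.1, 89.3 and 84.8 CPM against 104, 92.3 and 97.1 CPM, with no overlap and a log2 fold change of 0.20 ± 0.14. For 23 of the 25 members the 95% interval of the change lay inside a 2-fold change in either direction (73.4% over all genes with an interval).

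**Figure D1:**
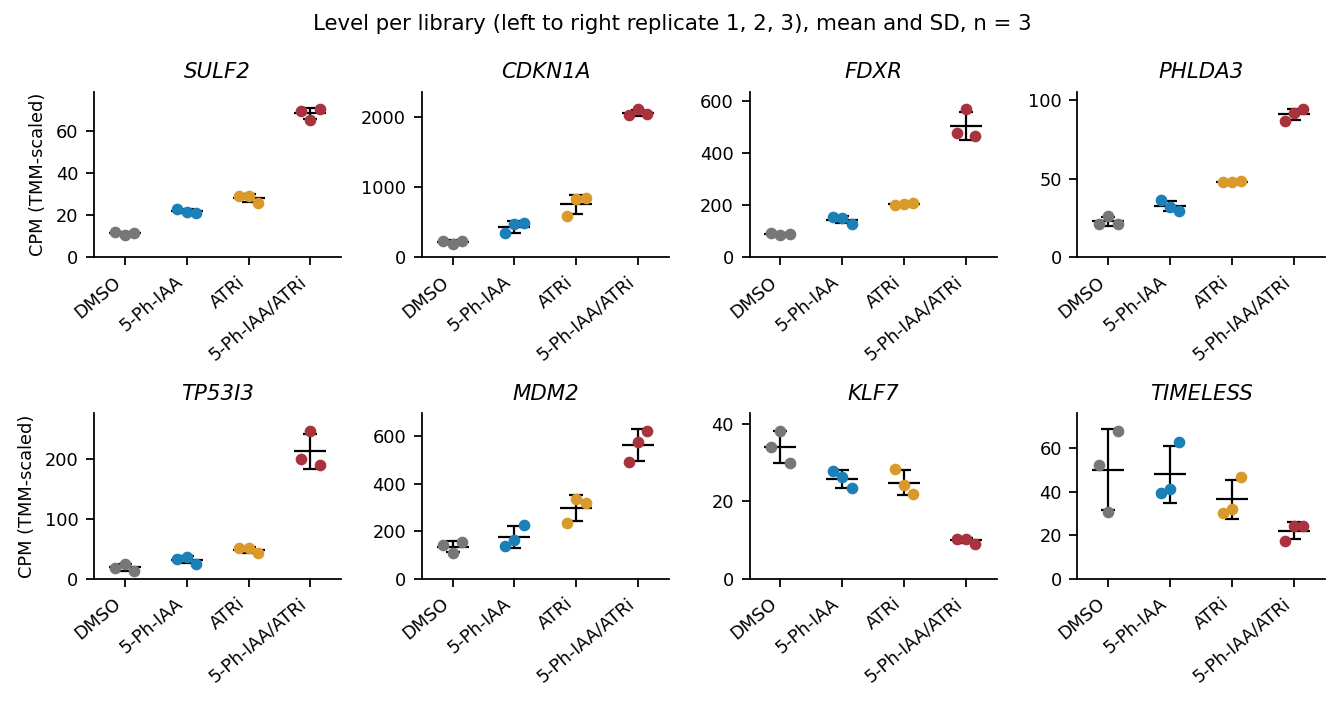
Level of 8 genes in each of the 12 libraries, in CPM scaled by TMM (y axis, from 0) by group (x axis); points are replicates 1, 2 and 3 from left to right, lines the mean and SD (n = 3). SULF2, CDKN1A, FDXR, PHLDA3 and TP53I3 have all 3 5-Ph-IAA libraries above all 3 DMSO libraries, KLF7 has all 3 below, and MDM2 and TIMELESS overlap.

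Across all genes the response to 5-Ph-IAA alone was small. At an unadjusted p under 0.05 there were 239 genes (1.32%), of which 168 were higher (0.931% of genes tested) and 71 lower (0.393%). A uniform p would give 902 genes. The test thus called fewer genes than its nominal rate, and the reason was not tested. All 3 treated libraries were above all 3 controls for 360 genes (1.99%) and below for 249 genes (1.38%). A positive log2 fold change was found for 46.8% of genes. The data bound the size of most changes: for 13248 of 18047 genes with an interval (73.4%), the 95% interval lay within a 2-fold change in both directions, and the median standard error was 0.244 on the log2 scale. Of the 239 genes, 68 had a fitted change above 2-fold. DESeq2, run on the same counts, called 18 genes, all of them higher. They include SULF2 and 10 other genes among the 12 top-ranked on the higher side, described below.

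The transcripts of TIMELESS and its partners overlapped between the groups. TIMELESS (chromosome 12, 56416363 to 56449426) had 52.2, 30.5 and 67.9 CPM with DMSO and 39.5, 41.4 and 63.0 CPM with 5-Ph-IAA, where the groups overlap almost entirely. Its log2 fold change was -0.07 ± 0.29, with a 95% interval of -0.70 to 0.57. The degron acts on the protein, so this RNA level is no check of the degradation. TIPIN, which binds TIMELESS directly, had 17.7, 11.7 and 20.4 CPM against 14.9, 12.9 and 21.3 CPM (log2 fold change -0.02 ± 0.22). CLSPN, which encodes CLASPIN, had 0.12 ± 0.43, and of the 16 genes of the fork protection complex and fork remodellers 3 were positive, 13 negative and none had an unadjusted p under 0.05. RADX, which encodes a protein that binds single-stranded DNA at forks, was the 1 member whose groups did not overlap, at 4.64, 6.35 and 4.48 CPM in DMSO and 4.18, 4.4 and 3.54 CPM in 5-Ph-IAA libraries (log2 fold change -0.35 ± 0.22). Over all genes tested, 1.38% had all 3 treated libraries below all 3 controls.

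Most genes of the ATR pathway had a 95% interval inside a 2-fold change, as did most genes tested. ATR had 59.0, 56.6 and 56.4 CPM with DMSO and 52.7, 48.9 and 61.0 CPM with 5-Ph-IAA (log2 fold change -0.08 ± 0.11, 95% interval -0.33 to 0.17). CHEK1, the kinase downstream of ATR, had a wider interval of -0.98 to 0.70 around a log2 fold change of -0.14. Of the 12 genes of ATR and CHK1 signalling, 10 had an interval inside 2-fold (73.4% over all genes with an interval). None of the 12 had an unadjusted p under 0.05 (1.32% over all genes tested). The same count of 0 held for 11 genes of ATM and double-strand break signalling, of which 11 had intervals inside 2-fold, and for 17 genes of end joining. PRKDC, which encodes DNA-PKcs, had 431, 167 and 550 CPM in DMSO and 223, 266 and 535 CPM in 5-Ph-IAA libraries, with the 5-Ph-IAA libraries inside the range of the DMSO libraries (log2 fold change -0.16 ± 0.44).

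Most targets of p53 were on the higher side, all but CDKN1A and PURPL by less than 2-fold, and none passed the adjusted threshold in the edgeR model of 12 libraries. DESeq2 on the same counts called 5 of them higher, CDKN1A, FDXR, PHLDA3, SESN1 and TRIAP1, and the edgeR model with the mitochondrial share as a covariate called CDKN1A and FDXR. Of 71 listed genes, 70 are in the table and 65 were tested. The 5 left out by the count filter were EDA2R, GLS2, RPRM, SPATA18 and TP53TG1. Of the 65 tested genes, 54 had a positive and 11 a negative log2 fold change, and the median was 0.27, beside -0.01 over all genes. At an unadjusted p under 0.05 there were 18 higher (background 0.931%) and 1 lower (background 0.393%). All 3 treated libraries lay above all 3 controls for 16 of the 65 (background 1.99%) and below for 1 (background 1.38%). The number with a positive change was 51 to 56 when each of the 6 libraries was left out in turn, and the number higher at an unadjusted p under 0.05 was 17 to 23.

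Per library, the median level of the 65 genes relative to the DMSO mean was 0.04, -0.06 and 0.02 on the log2 scale in DMSO replicates 1, 2 and 3. It was 0.14, 0.36 and 0.40 in 5-Ph-IAA replicates 1, 2 and 3. The groups do not overlap on this measure, and 5-Ph-IAA replicate 1 is closest to the controls.

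**Figure D2:**
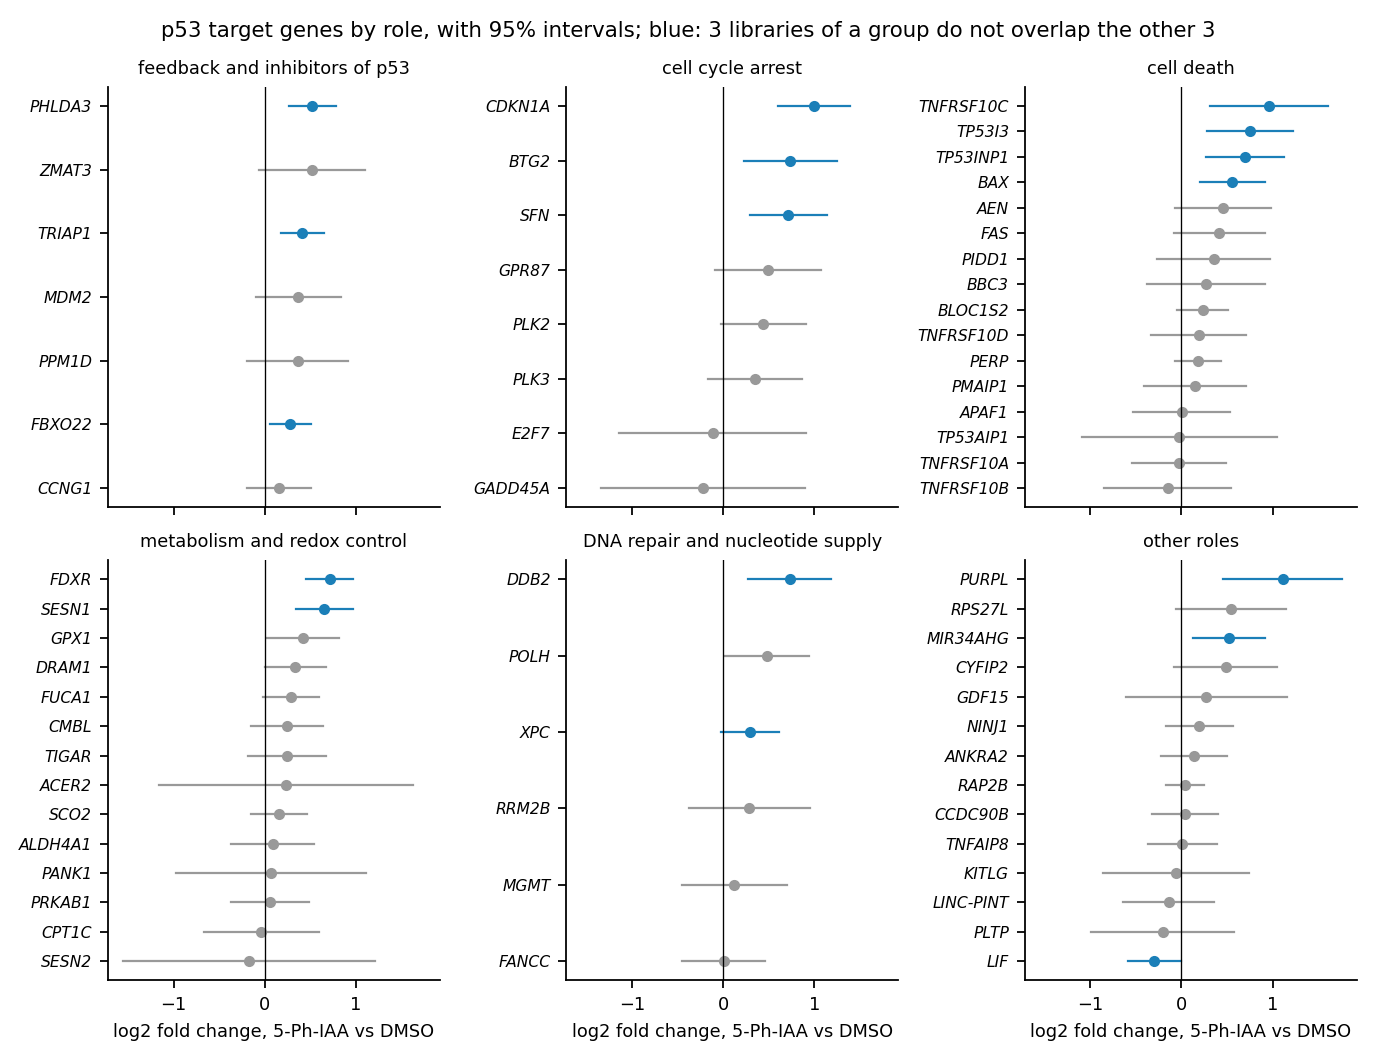
Log2 fold change of 65 p53 target genes, 5-Ph-IAA against DMSO (x axis), by role; points are edgeR estimates and lines 95% intervals. Blue marks genes whose 3 5-Ph-IAA libraries do not overlap the 3 DMSO libraries: 16 above and 1, LIF, below.

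Cell cycle arrest genes had the highest median of the 6 p53 groups, 0.47 over 8 genes, with 6 positive and 3 higher at an unadjusted p under 0.05. CDKN1A (ENSG00000124762.14; chromosome 6, 36676463 to 36687332), the gene of p21, a brake on cyclin-dependent kinases, had 231, 189 and 234 CPM in DMSO and 341, 478 and 487 CPM in 5-Ph-IAA libraries. Every treated library was above every control, and 5-Ph-IAA replicate 1 was the lowest of the treated ones. The log2 fold change was 1.00 ± 0.18 (edgeR adjusted p = 0.532). SFN, the 14-3-3 sigma protein that holds cells before mitosis, had 206, 144 and 223 CPM against 365, 245 and 329 CPM, again with no overlap (0.71 ± 0.19). BTG2, an antiproliferative adaptor of mRNA deadenylation, had 27.6, 19.3 and 31.2 CPM against 37.1, 36.4 and 56.5 CPM (0.74 ± 0.23). The exceptions were GADD45A at -0.22 ± 0.51 and E2F7 at -0.11 ± 0.47, both with wide spreads: GADD45A had 73.2, 207 and 44.6 CPM in the DMSO libraries alone.

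Of 8 genes of cyclin-dependent kinase inhibitors 3 were positive, and CDKN1A was the 1 with an unadjusted p under 0.05. CDKN1B, which encodes p27, had 46.9, 40.1 and 45.6 CPM with DMSO and 34.1, 39.7 and 40.9 CPM with 5-Ph-IAA (log2 fold change -0.21 ± 0.12), and CDKN2A had -0.15 ± 0.16.

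Feedback genes, which restrain p53 or its effects, were positive in 7 of 7 cases, with a median of 0.37. PHLDA3, an inhibitor of AKT, had 21.4, 26.0 and 21.0 CPM in DMSO and 36.3, 32.1 and 29.7 CPM in 5-Ph-IAA libraries (log2 fold change 0.52 ± 0.12). TRIAP1, a small inhibitor of apoptosis in the mitochondrial intermembrane space, had 43.4, 44.5 and 39.5 CPM against 58.6, 54.7 and 56.4 CPM (0.41 ± 0.11), and FBXO22, part of a ubiquitin ligase, had 0.28 ± 0.10. These 3 had no overlap between groups. MDM2, the ubiquitin ligase that degrades p53, had 142, 110 and 155 CPM against 138, 161 and 227 CPM, so that 5-Ph-IAA replicate 1 lay below 2 of the controls (0.37 ± 0.21, 95% interval -0.09 to 0.83). PPM1D, the phosphatase WIP1, had 0.36 ± 0.25.

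Among 16 genes of cell death, 13 were positive, with a median of 0.25, and 4 were higher at an unadjusted p under 0.05 with no overlap of the groups. TP53I3, an oxidoreductase linked to oxidative stress, had 18.7, 25 and 13.8 CPM in DMSO and 34.1, 37.3 and 25.3 CPM in 5-Ph-IAA libraries (log2 fold change 0.75 ± 0.21). BAX, which permeabilises mitochondria, had 55.0, 52.4 and 49.8 CPM against 93.5, 69.0 and 69.0 CPM (0.56 ± 0.16), where 5-Ph-IAA replicate 1 was the highest. TP53INP1, an autophagy and stress protein, had 0.70 ± 0.20, and the decoy receptor gene TNFRSF10C had 0.96 ± 0.30 at 2.04 to 5.72 CPM. The BH3-only activators were closer to 0: BBC3, which encodes PUMA, had 0.27 ± 0.30 and PMAIP1, which encodes NOXA, 0.15 ± 0.26. The death receptor genes TNFRSF10A and TNFRSF10B had -0.03 ± 0.23 and -0.15 ± 0.32. A separate list of 16 tested BCL2 family genes and caspase inhibitors had a median of 0.02 and no member with an unadjusted p under 0.05.

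Metabolic and redox targets were positive in 12 of 14 cases, with a median of 0.24 and 4 higher at an unadjusted p under 0.05. FDXR (chromosome 17, 74862497 to 74872994), the mitochondrial ferredoxin reductase, was second to SULF2 in rank, with 92.6, 84.4 and 88.0 CPM in DMSO and 154, 150.2 and 129 CPM in 5-Ph-IAA libraries. Both groups were tight and far apart (log2 fold change 0.71 ± 0.12, edgeR adjusted p = 0.408). SESN1, which restrains mTORC1, had 15.1, 12.7 and 16.1 CPM against 22.5, 19.1 and 27.5 CPM (0.66 ± 0.14). Its paralogue SESN2, which also answers to the integrated stress response, had 36.0, 110 and 32.6 CPM against 25.7, 111 and 21.8 CPM, high in replicate 2 of both groups (-0.17 ± 0.63). GPX1, a glutathione peroxidase, had 0.42 ± 0.18 and DRAM1, a lysosomal protein of autophagy, 0.33 ± 0.15.

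DNA repair and nucleotide supply targets were positive in 6 of 6 cases, with a median of 0.29. DDB2, which recognises ultraviolet lesions, had 42.5, 24.1 and 42.4 CPM with DMSO and 65.8, 50.4 and 64.8 CPM with 5-Ph-IAA (log2 fold change 0.73 ± 0.21). XPC, which acts beside it, had 48.2, 44.7 and 47.8 CPM against 48.6, 61.1 and 63.5 CPM, an ordering with no overlap although replicate 1 nearly touched the controls (0.30 ± 0.14). POLH, a translesion polymerase, had 0.48 ± 0.21, and RRM2B, a subunit of ribonucleotide reductase, 0.28 ± 0.30. The 14 targets with other roles had a median of 0.09 and 10 positive members. The long noncoding RNA PURPL had 1.36, 1.30 and 0.907 CPM against 3.30, 1.68 and 2.73 CPM (1.11 ± 0.30), and MIR34AHG, the host transcript of miR-34a, 0.52 ± 0.18. LIF, a cytokine, went the other way with 146, 154 and 145 CPM against 131, 132 and 98.2 CPM (-0.30 ± 0.13). GDF15, a secreted stress cytokine, had 302, 627 and 236 CPM against 536, 642 and 227 CPM, groups that overlap fully (0.27 ± 0.40).

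p53 binds DNA as a tetramer on a pair of half-sites of 10 bases. Windows of 300 bases around RefSeq gene starts on GRCh38.p14 (250 before to 50 after) were searched for the p53 site, with at most 2 mismatches to the p53 half-site consensus in total, at most 1 base between the half-sites and the core C and G kept in each. The consensus equals its own reverse complement, so a match counts for both strands. Of 52 tested p53 targets with a window, 7 (13.5%) held such a match, against 184 of 27305 gene symbols (0.674%). The sequences below are shown because they belong to members with described levels. Capitals mark the matched site, letters run 5′ to 3′ on the strand of the gene, and positions count from the annotated start at that window. A gene can have several such starts.
PURPL: cccaGGGCTTGTCTGGGCATGCCCacag
DDB2: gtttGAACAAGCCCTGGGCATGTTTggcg
MDM2: agctGGTCAAGTTCAGACACGTTCcgaa
FAS: tcctGGACAAGCCCTGACAAGCCAagcc
AEN: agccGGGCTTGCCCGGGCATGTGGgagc

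The PURPL stretch lies at chr5:27472161-27472188 (plus strand), with the site starting at position -127 and 0 mismatches. That of DDB2 lies at chr11:47214975-47215003 (plus strand), starts at position 6 of the transcript and also has 0 mismatches, with 1 base between the half-sites. Those of MDM2 (chr12:68808919-68808946, plus strand), FAS (chr10:88991305-88991332, plus strand) and AEN (chr15:88621302-88621329, plus strand) have 2 mismatches each and start at positions -94, -122 and -34. For MDM2 a second annotated start puts the same site at -101. Of the sequences shown, only that of PURPL is counted from the first base of the annotated gene span. The spans of DDB2, MDM2, FAS and AEN begin upstream of their matches, at 47214454, 68808172, 88964050 and 88604683, so these matches lie at starts inside the genes. PURPL and DDB2 had no overlap between the treatment groups, while FAS (0.42 ± 0.23), AEN (0.46 ± 0.24) and MDM2 overlapped. GPX1 and PANK1 also held a match with 2 mismatches, and their log2 fold changes were 0.42 ± 0.18 and 0.07 ± 0.48. None of the 4 windows of SULF2 and not the 1 window of CDKN1A held a match. A match describes the letters of the window and was not measured as binding here.

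The 12 genes of smallest p on the higher side, among genes with a mean of at least 5 CPM in the higher group and no overlap, were SULF2, FDXR, CDKN1A, SYTL2, SESN1, DNAI3, PHLDA3, SERINC2, ACTA2, SEMA3G, TRIAP1 and PTAFR, of which 5 are members of the p53 lists. The level filter reads the higher group, and DNAI3 and PTAFR met it only through the 5-Ph-IAA libraries. SYTL2, an effector of RAB27 in vesicle transport, had 22, 21.4 and 19.4 CPM in DMSO and 29.3, 30.6 and 31.0 CPM in 5-Ph-IAA libraries (log2 fold change 0.54 ± 0.11). SERINC2, a serine incorporator family protein, had 82.5, 100.3 and 85.5 CPM against 147, 120 and 122 CPM (0.53 ± 0.12). PTAFR, the receptor for platelet-activating factor, had 4.52, 3.81 and 4.54 CPM against 5.45, 9.87 and 9.41 CPM, with replicate 1 well below the other treated libraries (0.94 ± 0.25).

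The others on the higher side were at low levels. DNAI3, a dynein-associated protein, had 3.83, 2.96 and 3.12 CPM against 5.34, 4.86 and 5.37 CPM (0.65 ± 0.15). SEMA3G, a secreted semaphorin, had 0.55 ± 0.13. ACTA2, smooth muscle actin and one of the fixed markers of fibroblasts, had 6.37, 9.52 and 6.38 CPM against 15.6, 14.2 and 11.0 CPM (0.87 ± 0.20). Its annotated span (chromosome 10, 88935074 to 88991337) overlaps that of FAS (88964050 to 89017059), and the strand setting of the counting is not known, so reads of the 2 genes may not be fully separated. Of the 10 tested markers of other cell types 8 were positive, with a median of 0.28, and ACTA2 was the 1 with an unadjusted p under 0.05 or groups without overlap. The background of all 3 treated libraries above all 3 controls was 1.99%. The part of these markers in the other differences was not tested.

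On the lower side the 12 genes of smallest p were MSL3P1, BANK1, KLF7, SYT1, SLC38A1, CRNDE, RUNDC3B, EDEM1, ZNF333, RREB1, LONRF1 and EFNB2, none of them in a p53 list. BANK1 met the level filter only through the DMSO libraries. The log2 fold changes lay between -0.28 and -0.47. KLF7, a Krüppel-like transcription factor, had 33.9, 38.1 and 29.9 CPM in DMSO and 27.7, 26.2 and 23.3 CPM in 5-Ph-IAA libraries (-0.40 ± 0.14). SLC38A1, a glutamine transporter, had 261, 313 and 303 CPM against 164, 251 and 218 CPM (-0.47 ± 0.17). SYT1, a calcium sensor of vesicle release, had 69.3, 68.4 and 70.7 CPM against 43.8, 59.1 and 57.4 CPM, a tight control group above a wider treated one (-0.38 ± 0.14). EFNB2, the ligand ephrin-B2, had -0.43 ± 0.19, the long noncoding RNA CRNDE -0.46 ± 0.17 and the transcription factor RREB1 -0.36 ± 0.15. MSL3P1 (-0.45 ± 0.14) is a pseudogene and shares sequence with its parent, so its counts are uncertain.

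No proliferation gene passed the test with 5-Ph-IAA alone. Over 52 G2/M and mitotic genes the median log2 fold change was -0.03, with 17 positive, 35 negative and 0 at an unadjusted p under 0.05 by edgeR, and 0 past the adjusted threshold by DESeq2 or limma-voom. For 36 of the 52 the 95% interval lay inside a 2-fold change (73.4% over all genes with an interval). CDK1 had 130, 70.2 and 155 CPM in DMSO and 132, 92.3 and 189 CPM in 5-Ph-IAA libraries (0.22 ± 0.31), and MKI67, a proliferation marker, 382, 238 and 609 CPM against 242, 246 and 546 CPM (-0.25 ± 0.42). NDC80, a kinetochore protein, had 59.1, 54.3 and 56.6 CPM against 52.6, 48.7 and 51.1 CPM (-0.16 ± 0.15). It was the 1 member with no overlap (background 1.38% on the lower side). UBE2C, a ubiquitin carrier of the anaphase-promoting complex, had the smallest p of the list, with 81.3, 80.5 and 80.6 CPM against 151, 77.4 and 107 CPM (0.47 ± 0.26). The median of the list was 0.28 without DMSO replicate 3 and -0.40 without 5-Ph-IAA replicate 3, so its sign depended on single libraries.

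The 46 G1/S and replication genes had a median of -0.09 with 9 positive and 37 negative members, and none had an unadjusted p under 0.05. PCNA, the sliding clamp, had 205, 91.3 and 265 CPM with DMSO and 263, 130 and 289 CPM with 5-Ph-IAA (log2 fold change 0.28 ± 0.36). The median was -0.42 without 5-Ph-IAA replicate 3 and 0.31 without DMSO replicate 3. Of 32 genes of homologous recombination and the Fanconi pathway 27 were negative, with a median of -0.08, and none had an unadjusted p under 0.05. FANCF was the 1 with no overlap (-0.24 ± 0.15, background 1.38% on the lower side).

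**Figure D3:**
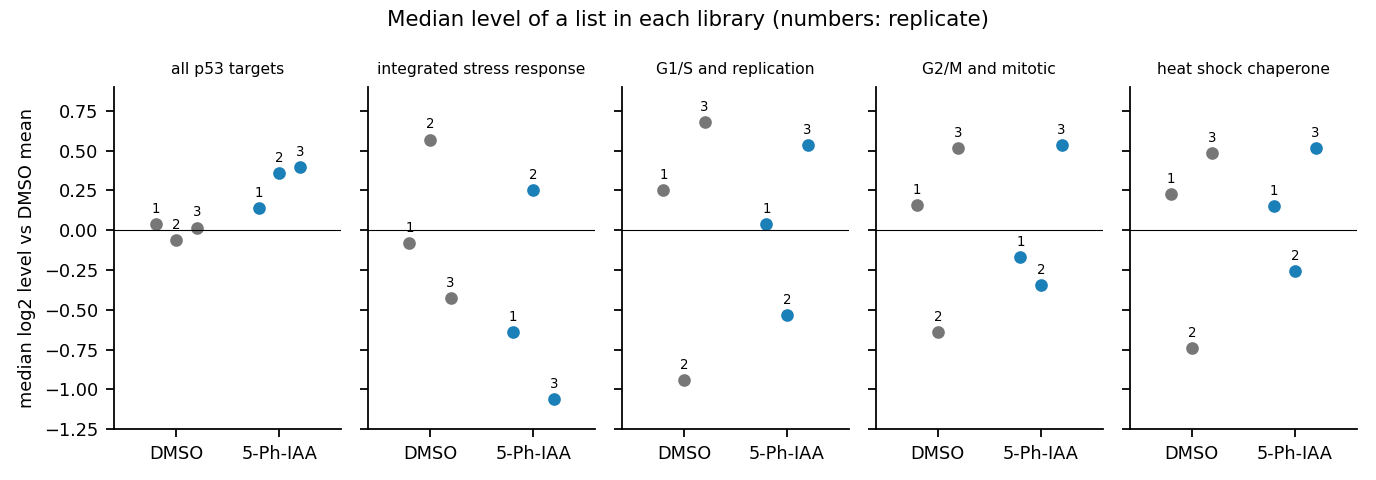
Median log2 level of 5 gene lists in each library, relative to the mean of the DMSO libraries (y axis), for DMSO and 5-Ph-IAA (x axis), with replicate numbers at the points. The p53 targets separate the groups, at most 0.04 in DMSO and at least 0.14 in 5-Ph-IAA libraries, while the other 4 lists overlap between the groups.

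The integrated stress response, in which the factor ATF4 switches on amino acid synthesis, transport and tRNA charging, was the list with the lowest median. All 31 tested members had a negative log2 fold change, with a median of -0.34, and none had an unadjusted p under 0.05. Per library, the median level relative to the DMSO mean was -0.08, 0.57 and -0.43 in DMSO replicates 1, 2 and 3 and -0.64, 0.25 and -1.06 in 5-Ph-IAA replicates 1, 2 and 3. The groups overlap, and replicate 2 is the highest in both. PHGDH, the first enzyme of serine synthesis, had 207, 237 and 142 CPM against 112, 191 and 78.7 CPM (-0.62 ± 0.28), and ASNS, asparagine synthetase, 632, 846 and 333 CPM against 310, 659 and 138 CPM (-0.71 ± 0.48). NARS1, an aminoacyl-tRNA synthetase, was the 1 member with no overlap (background 1.38% on the lower side), at 355, 323 and 318 CPM against 274, 317 and 270.0 CPM (-0.21 ± 0.11). The stress factor DDIT3 spanned 28.3 to 268 CPM within DMSO and 10.1 to 229 CPM within 5-Ph-IAA libraries.

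The size of this median depended on which libraries were used. Its median was -0.05 without DMSO replicate 2, which also had the highest mitochondrial share, -0.15 without 5-Ph-IAA replicate 3 and -0.94 without 5-Ph-IAA replicate 2. It was -0.33 with the mitochondrial share as a covariate and 0.03 in the 8 libraries left when the one with the highest mitochondrial share was dropped from each group. The 19 genes of the unfolded protein response had a median of -0.08, with 6 positive and 13 negative. SDF2L1 had the highest log2 fold change of this list, 0.35. All 3 treated libraries lay below all 3 controls for 2 members (background 1.38%) and above for 0 (background 1.99%). EDEM1, which clears misfolded glycoproteins from the endoplasmic reticulum, had 46.7, 39.8 and 38.1 CPM against 34.2, 32.6 and 35.6 CPM (-0.28 ± 0.11), and XBP1, a transcription factor of this response, 83.1, 87.2 and 82.2 CPM against 53.9, 81.4 and 68.9 CPM (-0.31 ± 0.16).

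Heat shock chaperone genes were positive in 12 of 12 cases, with a median of 0.12, and no member had an unadjusted p under 0.05 or groups without overlap. HSPA8 shows the spread, with 918, 157 and 1454 CPM in DMSO and 338, 377 and 1984 CPM in 5-Ph-IAA libraries (log2 fold change 0.09 ± 0.80). The median was -0.16 without 5-Ph-IAA replicate 3 and -0.12 without DMSO replicate 2. Sterol and fatty acid synthesis genes (22 of 27 positive, median 0.11) and glycolysis and hypoxia genes (24 of 31 positive, median 0.07) likewise held no member with an unadjusted p under 0.05, and both medians were negative without DMSO replicate 2 (-0.14 and -0.08) or 5-Ph-IAA replicate 3 (-0.14 and -0.06).

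**Figure D4:**
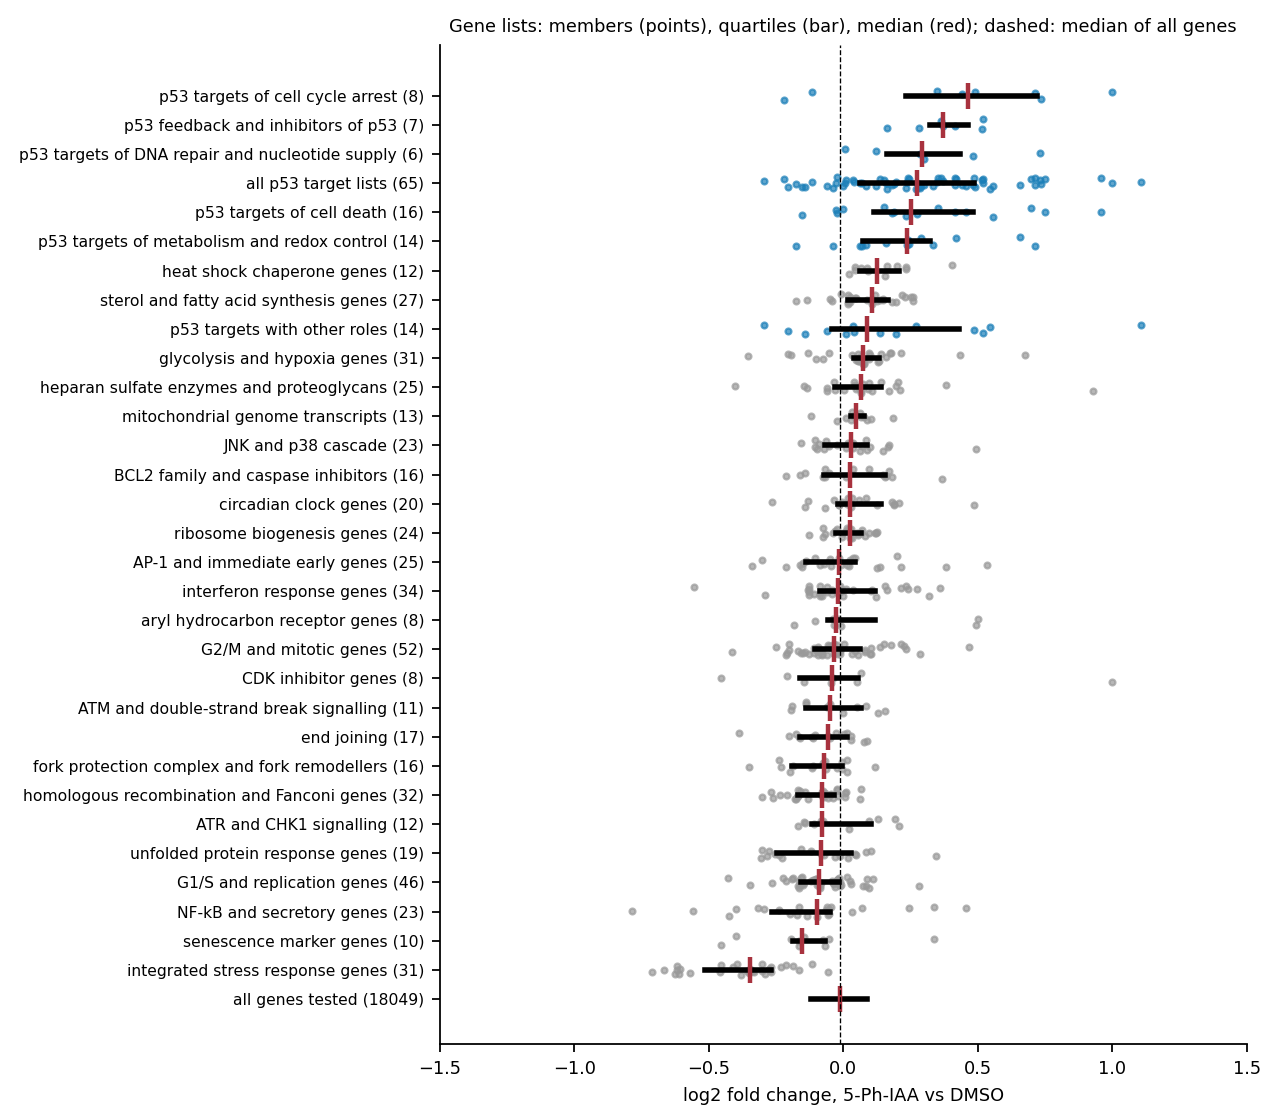
Log2 fold change of the members of each gene list, 5-Ph-IAA against DMSO (x axis), with the number tested in brackets; grey or blue points are genes (blue for p53 targets), black bars the quartiles and red ticks the median. The p53 role lists have medians from 0.09 to 0.47, the integrated stress response list is at -0.34, and all genes have a median of -0.01 (dashed line).

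5-Ph-IAA is an indole, and indoles can bind the aryl hydrocarbon receptor, so a list of that receptor's gene and its targets was examined. Of 8 tested genes 2, CYP1A1 and ALDH3A1, were positive, and the median of the list was -0.03. CYP1A1, the best known target, had 1.64, 1.27 and 2.07 CPM with DMSO and 2.0, 2.38 and 2.67 CPM with 5-Ph-IAA, groups that overlap at 1 pair of libraries (log2 fold change 0.50 ± 0.24, 95% interval -0.02 to 1.02). With ATRi present CYP1A1 had 1.37, 1.44 and 1.44 CPM without and 2.54, 2.33 and 3.34 CPM with 5-Ph-IAA, with no overlap (log2 fold change 0.95 ± 0.24, edgeR adjusted p = 0.0546). Without ATRi, ALDH3A1 had a log2 fold change of 0.49, and 0.24 to 0.66 when each of the 6 libraries was left out. AHR, the gene of the receptor, had -0.11, AHRR, the repressor of the receptor, -0.03 ± 0.30 and TIPARP -0.01 ± 0.25. Whether the compound acts through this receptor was not tested. NQO1, a quinone reductase that also answers to NRF2, had 530.0, 510 and 489 CPM against 456, 476 and 416 CPM (-0.18 ± 0.12). Its groups did not overlap (background 1.38% on the lower side).

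The lists of stress and inflammatory signalling held few members with an unadjusted p under 0.05, beside 1.32% of all genes tested. In lists of this size such a share gives few members or none. Of 25 AP-1 and immediate early genes, IER5 had an unadjusted p under 0.05, with 84.0, 70.9 and 67.4 CPM in DMSO and 117, 87.3 and 85.5 CPM in 5-Ph-IAA libraries (log2 fold change 0.38 ± 0.15), while JUN, the AP-1 subunit that JNK phosphorylates, had -0.14 ± 0.30. None of 23 genes of the JNK and p38 cascade had an unadjusted p under 0.05. For 22 of them the 95% interval lay inside a 2-fold change (73.4% over all genes with an interval). Among 34 interferon response genes the antiviral GTPase MX1 was the 1 with an unadjusted p under 0.05, at 1.82, 2.04 and 1.90 CPM against 1.38, 1.53 and 1.02 CPM (-0.56 ± 0.22). Of 23 tested NF-kB and secretory genes and of 10 senescence markers none had an unadjusted p under 0.05. TIMELESS shares its name with an insect clock gene, and the 20 tested circadian clock genes had a median of 0.02 with no member at an unadjusted p under 0.05; PER2 had 0.03 ± 0.32 and BMAL1 -0.26 ± 0.33. All 24 ribosome biogenesis genes had intervals inside a 2-fold change, beside the same 73.4% over all genes.

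The effect of 5-Ph-IAA was measured a second time where ATRi was present in both groups, in 6 libraries that do not enter the fold changes against DMSO. These libraries do share the count filter and the estimate of spread with that comparison, and with the 6 compared libraries alone no gene passed. There 294 genes passed the adjusted threshold on the higher side (1.63%) and 340 on the lower side (1.88%), with 2982 at an unadjusted p under 0.05. Of the 12 top-ranked genes on the higher side 11 also passed there on the higher side, all but SYTL2 (log2 fold change 0.33, edgeR adjusted p = 0.157), where DNAI3 and PTAFR are among the 11. Of the 12 on the lower side 5 passed on the lower side: MSL3P1, KLF7, SYT1, CRNDE and ZNF333. KLF7 had -1.32 with ATRi, from 28.3, 24.1 and 21.9 CPM to 10.4, 10.4 and 9.12 CPM.

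Of the 65 p53 targets, 25 passed the adjusted threshold on the higher side with ATRi present (background 1.63%) and none on the lower side, with a median of 0.69. The effect was more positive with ATRi for 54 of 65 (50.3% of all genes tested). Tested directly, the difference of the effects had an unadjusted p under 0.05 for 11 genes with a more positive effect (3.15% of all genes tested), and for MGMT and KITLG with a less positive one (4.15%). After adjustment none of the 65 passed, whereas 14 genes did among all tested (0.0776%). TP53I3 had the largest such difference with a value of 1.38 ± 0.30 (edgeR adjusted p = 0.201), and FDXR had 0.59 ± 0.17 (edgeR adjusted p = 0.325). For CDKN1A the difference was 0.45, and for SULF2 0.36 (edgeR adjusted p = 0.83 and 0.62). DDB2 and SESN1 had like or larger fold changes without ATRi: DDB2 had 0.73 against 0.44 and SESN1 0.66 against 0.69. The effects of 5-Ph-IAA on these genes with and without ATRi are not shown to differ by these tests. On simulated counts, with 100 genes changed by each fold, the test of the difference recovered 17% of 2-fold and 83% of 4-fold changes. Most differences of 2-fold and some of 4-fold could therefore be missed.

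**Figure D5:**
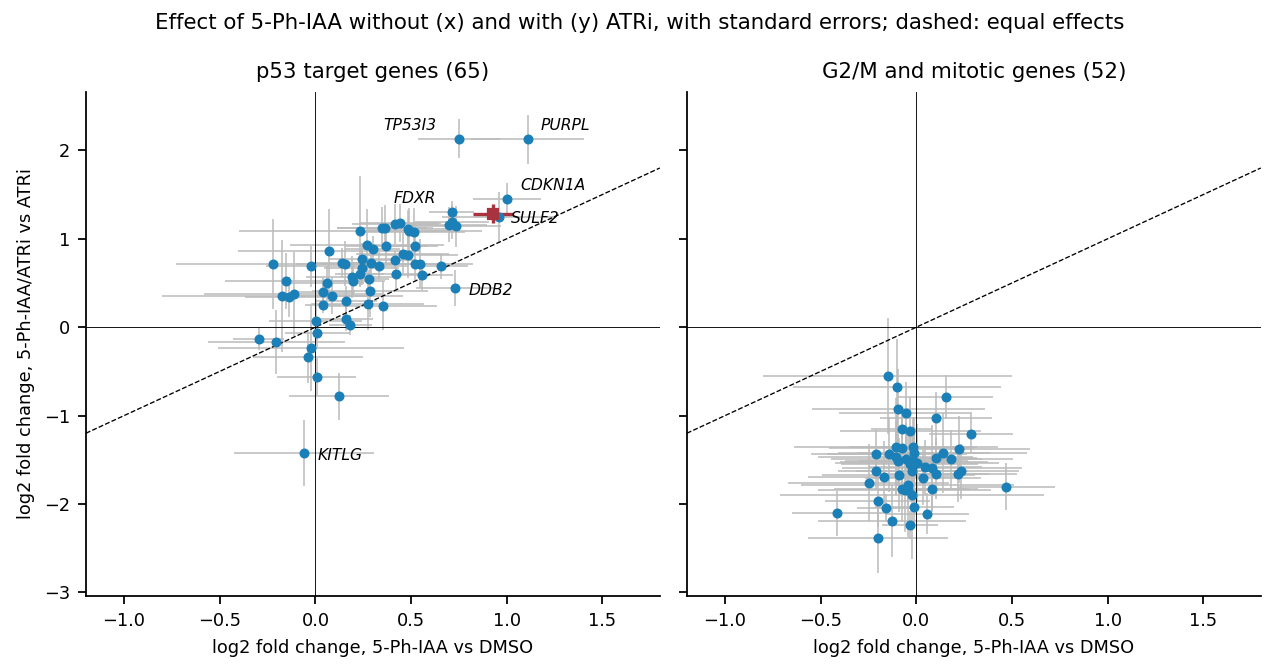
Log2 fold change of 5-Ph-IAA against DMSO (x axis) and of 5-Ph-IAA/ATRi against ATRi (y axis) for 65 p53 targets with SULF2 as a red square (left) and 52 G2/M and mitotic genes (right); lines are standard errors and the dashed line marks equal effects. Of the p53 targets 54 lie above the dashed line, and the mitotic genes lie near 0 on the x axis and below 0 on the y axis, with medians of -0.03 and -1.57.

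Mitotic genes fell in this second measurement. With ATRi present 29 of the 52 fell past the adjusted threshold (background 1.88%), with a median of -1.57, against -0.03 and 0 of 52 without ATRi. The difference of the effects passed for AURKB, CDC25C, CENPA, NDC80 and NUF2 of this list. NDC80 had -0.16 ± 0.15 without ATRi and -2.04 with it (difference -1.88 ± 0.22, edgeR adjusted p = 0.0145). CDC25C, the phosphatase that activates CDK1, had -0.03 and -2.24 (difference -2.20 ± 0.21, edgeR adjusted p = 0.00358). The integrated stress response list was at a median of -0.46 there, with 1 of 31 past the threshold on the lower side, PHGDH at -1.72 (edgeR adjusted p = 0.0117).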

How the data were processed

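The deposited table holds estimated counts per gene, made by the authors with Salmon 1.10.1, STAR 2.7.9a and Trim Galore 0.6.7 among other tools on GRCh38.p14, per the submitters' processing notes. Neither annotation release nor strand setting is given in the sources used here. Per the labels' protocols, poly(A) RNA was converted with a directional kit. Of the values 13.6% were not whole, and all were rounded. The edgeR function filterByExpr removed low genes (at least 10 counts, 15 in total), the rest held at least 99.89% of each library, and TMM factors were computed on them. One edgeR 4.0.16 quasi-likelihood model (limma 3.58.1, R 4.3.3) held all 12 libraries with 1 mean per group, and p-values were adjusted by Benjamini-Hochberg over 18049 genes. Levels are CPM scaled by TMM. Estimated counts divide reads among similar transcripts, so paralogues and pseudogenes are uncertain.

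Named are 16 fixed genes (1 of them is not reported here), every gene past the threshold, the 12 smallest p in each direction with at least 5 CPM and no overlap, the p53 targets, and up to 4 members of each other list by smallest p; others were chosen after their values were seen. The members and the 32 gene lists were chosen with earlier results of these data known. Replicates of these groups were compared by chi-square (47.6 to 255.6 for each gene on average), and none was a copy of another. On simulated counts for 5-Ph-IAA against DMSO (17760 genes), 100 genes were changed 2-fold and 100 others 4-fold, all with at least 5 CPM. Of these changes 48% and 95% were recovered, with 7 false calls. The adjusted p depends on how many genes change, so these shares need not hold in the real comparison, where 1 gene passed. Alternatives were other scalings and filters, DESeq2 1.42.0, limma-voom, the compared groups alone, a block for the set number, mitochondrial share as a covariate, 8 libraries, and leaving out each library; the counts of p53 targets and the share of narrow intervals under these settings were added after seeing the data.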

Additional observations from a re-analysis of the deposited data

Results flagged for a closer look

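For 8 listed genes the effect of 5-Ph-IAA differed between cells with and without ATRi, by the edgeR test of that difference itself. The value given is the effect with ATRi minus the effect without it, on the log2 scale. AURKB, the kinase of the chromosomal passenger complex, had -2.16 (adjusted p = 0.0394), from 0.06 without ATRi and -2.11 with it. CDC25C had -2.20 (adjusted p = 0.00358), CENPA, the centromeric histone, -1.80 (adjusted p = 0.0194), NDC80 -1.88 (adjusted p = 0.0145), and its kinetochore partner NUF2 -2.02 (adjusted p = 0.0394). CDKN3, a phosphatase of cyclin-dependent kinases, had -1.51 (adjusted p = 0.0394). In the other direction, the matricellular protein gene CCN1 had 2.13 (adjusted p = 0.037) and the immediate early gene NR4A1 1.53 (adjusted p = 0.0175). Without ATRi all 8 had a log2 fold change between -0.16 and 0.13.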

How the results depend on the processing

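For 5-Ph-IAA against DMSO, 1 gene passed; the count was 18 with DESeq2, 6 with the mitochondrial covariate, and 0 with upper quartile factors, without a count filter, with limma-voom, with the compared groups only, with 8 libraries and without any 1 of the 6 libraries (range 0 to 0). SULF2 kept a log2 fold change of 0.85 to 0.95 over the 10 alternatives and lost its call in 5 of them. With ATRi present the 634 calls became 1461 with DESeq2, 970 with the compared groups only, 3188 with the mitochondrial covariate, 64 with 8 libraries and 134 to 220 without 1 library. The 14 calls of the difference became 47 without a count filter, 212 with DESeq2, 9 with limma-voom, 278 with the mitochondrial covariate, 0 with 8 libraries and 2 to 15 without 1 library. The share of genes with an interval inside 2-fold was 39.0% without a count filter, where 40661 genes were tested, and 63.7% to 65.6% without 1 library. The causes were not tested. The p53 median stayed between 0.24 and 0.38 in every refit, and 13 to 32 members were higher at an unadjusted p under 0.05. With the set number as a replicate block the counts were 1, 1980 and 215. Samples share only that number: deviations of the DMSO and 5-Ph-IAA libraries correlated by -0.0686, 0.389 and 0.756 in sets 1, 2 and 3. Between DMSO and 5-Ph-IAA libraries of different sets the values ran from -0.738 to 0.558.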
